A study of Mus musculus with 9 samples.

Results

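The Id inhibitors and E proteins are 7 genes of the basic helix-loop-helix system, Id1, Id2, Id3, Id4, Tcf3, Tcf4 and Tcf12, and they are described here in mouse bone marrow cells that carried mutant IDH1, wild-type IDH1 or an empty vector. The family was chosen by name with the differences between groups in its log2 levels known. Each gene was read from a probe set with that single gene symbol, selected on its mean log2 level over the 9 arrays where a gene had several. All 7 had such a probe set, 1 each, among 17731 genes.

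There were 9 Affymetrix arrays in 3 groups of 3. IDH1mut cells carried the retroviral vector pSF91 with a mutant IDH1 followed by IRES-GFP, IDH1wt cells carried pSF91 with wild-type IDH1 followed by IRES-EGFP, and CTL cells carried the empty EGFP vector. IDH1 is an isocitrate dehydrogenase of the cytosol, and tumour mutants of it produce 2-hydroxyglutarate. In all 3 groups the starting cells were bone marrow cells of the C57BL6 strain label immortalised by HoxA9, a homeobox factor that can drive leukemia in mice, so the CTL cells carry HoxA9 as well. All were transplanted into irradiated mice, and cells positive for the fluorescent protein were sorted from the marrow 4 weeks later. The IDH1 mutation and the species of the IDH1 insert are not given in the sources used here, and no value below checks the vectors. The labels do not say whether arrays of a group came from separate mice, pooled mice or a single clone of infected cells, so the p-values measure the spread between these samples, which may be technical. The label names marrow cells and no single cell type. The summed log2 level of 12 late neutrophil genes was 16.8 on the IDH1mut arrays, 16.5 on the IDH1wt arrays and 16.4 to 16.5 on the CTL arrays, and in such bulk samples fewer cells of a type and less RNA per cell cannot be told apart. Within groups the arrays correlated at 0.992 to 0.997 over all genes, and between groups at 0.982 to 0.992.

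E proteins are transcription factors that bind the E-box, the DNA motif CANNTG, as pairs with each other or with partners such as TAL1. The Id proteins have the helix-loop-helix that makes the pair but lack the basic stretch that touches DNA, so an E protein held by an Id protein cannot bind. In blood formation the E proteins drive lymphoid programmes, Tcf4 is the E protein of plasmacytoid dendritic cells, Id2 is needed for natural killer and other innate lymphoid cells, and Id genes are classic direct targets of bone morphogenetic protein (BMP) signalling. Tcf4 here is the E protein and not Tcf7l2, the Wnt effector that once shared its name.

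The proximal promoters of 3 Id genes are set out below, that of Id2, which passed the test described further on, and those of Id3 and Id4, which did not. They were taken from RefSeq (build GRCm38.p6) and run 5′ to 3′ on the strand of the gene, 250 bases before to 50 bases after the annotated start. Capitals mark the E-box. Id2 lies at chr12:25096043-25096342 on the minus strand, Id3 at chr4:136143572-136143871 on the plus strand and Id4 at chr13:48260866-48261165 on the plus strand.
Id2: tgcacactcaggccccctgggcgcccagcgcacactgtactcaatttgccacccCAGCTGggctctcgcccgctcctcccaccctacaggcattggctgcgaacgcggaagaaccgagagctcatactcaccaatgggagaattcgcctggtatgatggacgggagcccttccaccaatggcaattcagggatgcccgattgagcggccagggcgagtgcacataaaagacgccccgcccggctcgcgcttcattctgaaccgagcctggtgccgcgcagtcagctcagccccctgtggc
Id3: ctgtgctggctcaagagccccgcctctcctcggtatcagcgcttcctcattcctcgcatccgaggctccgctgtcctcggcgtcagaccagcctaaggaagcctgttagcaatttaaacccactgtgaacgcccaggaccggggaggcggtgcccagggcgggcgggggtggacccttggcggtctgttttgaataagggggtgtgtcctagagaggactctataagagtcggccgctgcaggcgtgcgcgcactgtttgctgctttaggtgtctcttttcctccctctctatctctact
Id4: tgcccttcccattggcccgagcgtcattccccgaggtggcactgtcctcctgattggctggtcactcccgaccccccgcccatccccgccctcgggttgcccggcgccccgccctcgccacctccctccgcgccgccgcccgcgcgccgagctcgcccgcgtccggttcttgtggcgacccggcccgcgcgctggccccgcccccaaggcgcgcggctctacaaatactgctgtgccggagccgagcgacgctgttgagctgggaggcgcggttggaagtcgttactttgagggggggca
The Id2 promoter held 1 E-box, CAGCTG, which began 196 bases before the start, while the windows of Id3 and Id4 held 0. It also held CCAAT, the letters read by the factor NF-Y, at 3 places that began 159, 120 and 76 bases before the start. Id4 held CCAAT at 2 places, and Id3 at 0. The letters GGCGCC, which SMAD proteins of the BMP pathway can bind, occurred once each in Id2 and Id4, and GCGNGGGCG, the letters of EGR factors, occurred at 2 places in Id4 that share no base with each other or with its GGCGCC and at 0 in Id2 and Id3. All motifs were searched on both strands. Among 32841 promoters of the same length, 72.3% held CANNTG, 37.4% held CCAAT, 11.9% held GGCGCC and 5.6% held GCGNGGGCG. Promoter windows were used for 5 of the 7 genes, since Id1 had no window and Tcf4 was left out. These were 7 windows in all because Tcf12 had 3, and 5 of them, of Id2, Tcf3 and Tcf12, held an E-box. A match of letters is a description of the window and not a bound site.

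Id2 (chr12:25093799-25096092), the Id gene of innate lymphoid and dendritic cells, was the member that differed most. Its log2 level was 8.27, 8.33 and 8.52 on the IDH1mut arrays, 5.97, 6.95 and 6.48 on the IDH1wt arrays, and 5.92, 5.79 and 6.26 on the CTL arrays. Every IDH1mut array lay above every other array, while the IDH1wt and CTL arrays overlapped. Group means were 8.37 ± 0.13 in IDH1mut, 6.46 ± 0.49 in IDH1wt and 5.99 ± 0.24 in CTL cells (SD, n = 3 arrays each). Id2 rose 5.21-fold in IDH1mut against CTL cells, a log2 difference of 2.38 ± 0.21 (SE; 95% interval 1.93 to 2.84; limma adjusted p = 4.14e-05), and 3.76-fold in IDH1mut against IDH1wt cells, 1.91 ± 0.21 (1.45 to 2.37; adjusted p = 0.000314). By size of fold change it ranked 20 among 17731 genes in the first of these comparisons. IDH1wt cells had 0.47 ± 0.21 more than CTL cells on the log2 scale, with an interval of 0.02 to 0.93 that did not pass after adjustment (adjusted p = 0.277). That difference was 0.23 without IDH1wt replicate 2 (adjusted p = 0.600) and 0.72 without IDH1wt replicate 1 (adjusted p = 0.0505). The spread of Id2 over the 9 arrays was the 32nd largest of all genes.

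Id1 (chr2:152736251-152737410), the Id gene tied most closely to BMP signalling and to stem cell maintenance, showed no such gap. Its log2 level was 8.89, 8.88 and 8.67 in IDH1mut, 8.75, 8.44 and 8.49 in IDH1wt, and 8.90, 8.89 and 8.96 in CTL cells. The IDH1wt arrays were all below the CTL arrays, and the IDH1mut arrays lay just below the lowest CTL array or further down. The difference was -0.35 ± 0.11 in IDH1wt against CTL cells (95% interval -0.59 to -0.12; adjusted p = 0.121), -0.10 ± 0.11 in IDH1mut against CTL cells (-0.33 to 0.13; adjusted p = 0.578) and 0.25 ± 0.11 in IDH1mut against IDH1wt cells (adjusted p = 0.152). None passed the threshold of 0.05 in this fit, although the IDH1wt difference against CTL passed when the fit modelled a trend of variance with level (adjusted p = 0.0434), weighted the arrays (adjusted p = 0.0319) or left out IDH1wt replicate 1 (adjusted p = 0.0485).

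Id3 (chr4:136143822-136145392), which in lymphocytes restrains E proteins in response to antigen receptor signals, varied more within groups than between them. It measured 4.70, 4.47 and 5.51 in IDH1mut, 3.86, 4.41 and 4.20 in IDH1wt, and 4.25, 5.37 and 3.93 in CTL cells on the log2 scale. IDH1mut replicate 3 and CTL replicate 2 were the highest arrays, and the IDH1mut and CTL groups overlapped through CTL replicate 2 alone. The difference of 0.38 ± 0.34 in IDH1mut against CTL cells had an interval of -0.37 to 1.13 (adjusted p = 0.501), and it was 0.07 without IDH1mut replicate 3, 0.09 without CTL replicate 3 and 0.80 without CTL replicate 2. Against IDH1wt, the 3 IDH1mut arrays were all higher, by 0.74 ± 0.34 on average (-0.01 to 1.49; adjusted p = 0.196), and by 0.43 without IDH1mut replicate 3. In IDH1wt against CTL cells the difference was -0.36 ± 0.34 (adjusted p = 0.644). Id4 (chr13:48261116-48266028), studied mostly as a regulator of neural and mammary progenitors, stayed near the low end of the scale, where RMA compresses differences. It ranged between 3.44 and 3.76 in IDH1mut, 3.27 and 3.50 in IDH1wt, and 3.34 and 3.49 in CTL cells, and its largest contrast, 0.21 ± 0.11 in IDH1mut against IDH1wt cells, did not pass (adjusted p = 0.247).

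**Figure D1:**
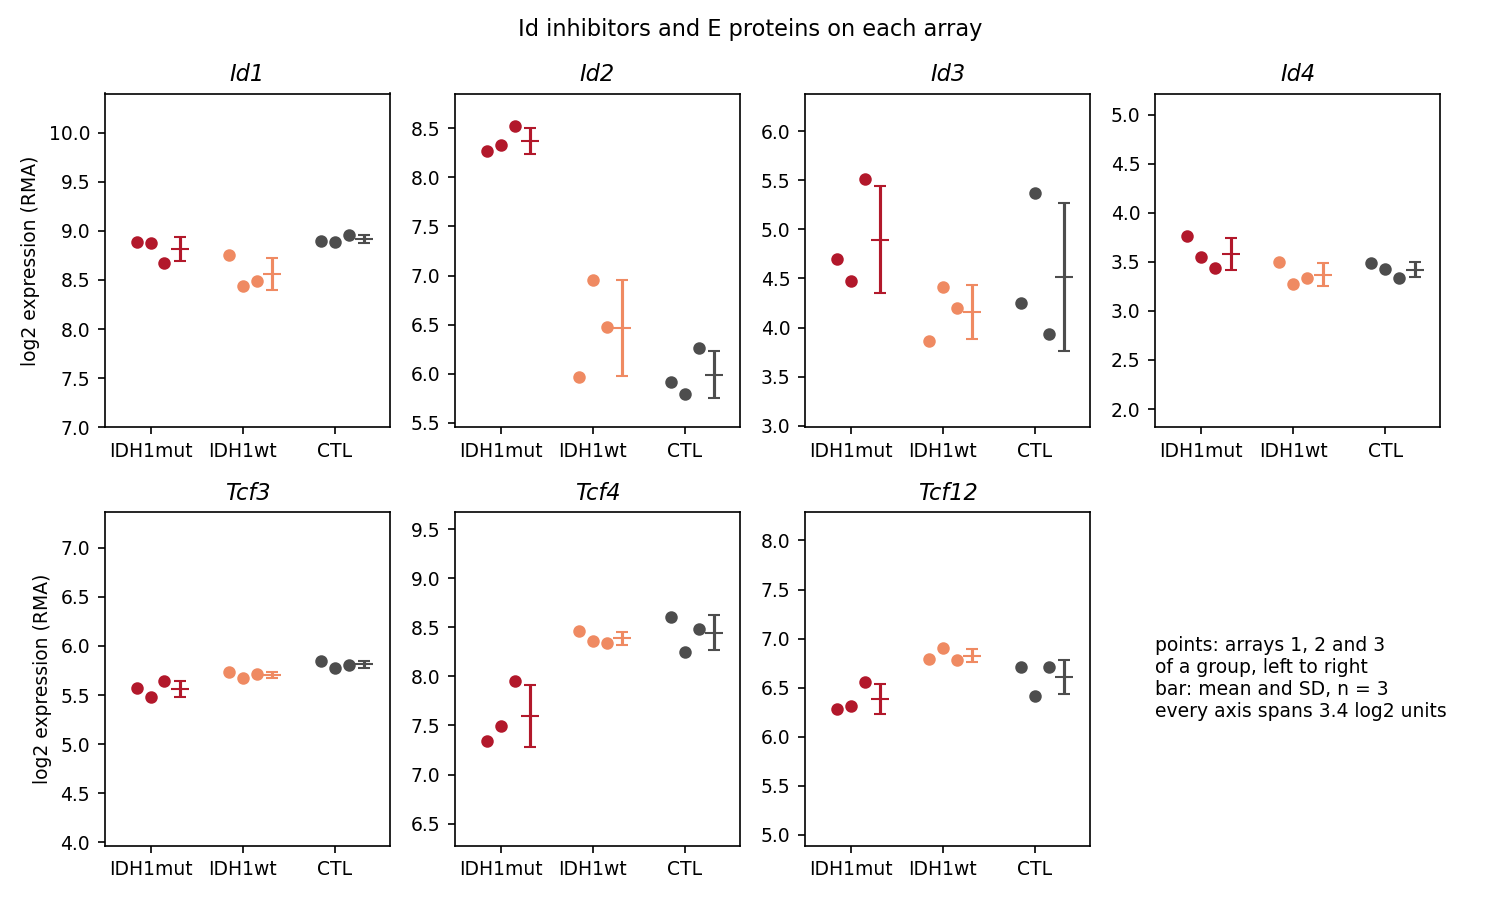
Log2 level of each of the 7 genes on the 9 arrays, 1 panel per gene, with IDH1mut, IDH1wt and CTL arrays as points from left to right and a bar for the group mean ± SD (n = 3). All panels span the same number of log2 units, and Id2 in IDH1mut cells, between 8.27 and 8.52, is the widest gap, while Id3 has a single high array in IDH1mut and in CTL cells.

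Among the E proteins, Tcf4 fell in IDH1mut cells. It is the gene that plasmacytoid dendritic cells require, and it was read here from a probe set of the x_at type, which by Affymetrix naming may contain probes that match other transcripts. The log2 level was 7.34, 7.49 and 7.95 in IDH1mut, 8.46, 8.36 and 8.34 in IDH1wt, and 8.61, 8.25 and 8.48 in CTL cells. All IDH1mut arrays lay below all other arrays, and the IDH1wt and CTL arrays were interleaved. The change was -0.85 ± 0.15 against CTL (1.81-fold lower; 95% interval -1.18 to -0.52; adjusted p = 0.00226) and -0.79 ± 0.15 against IDH1wt (1.73-fold lower; -1.12 to -0.47; adjusted p = 0.00591). IDH1wt and CTL cells differed by -0.06 ± 0.15, and the interval of -0.39 to 0.27 leaves room for differences in either direction (adjusted p = 0.881).

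Tcf12 (chr9:71844252-72111893), which encodes HEB, the E protein best known from thymocytes, measured 6.28, 6.31 and 6.56 in IDH1mut, 6.79, 6.90 and 6.78 in IDH1wt, and 6.71, 6.41 and 6.71 in CTL cells. IDH1mut arrays were all below IDH1wt arrays, and CTL arrays lay between, overlapping the IDH1mut arrays and not the IDH1wt arrays. Tcf12 fell by 0.44 ± 0.11 on the log2 scale in IDH1mut against IDH1wt cells (1.35-fold; interval -0.69 to -0.19; adjusted p = 0.0280). That call was lost without any 1 of the 3 IDH1wt arrays or of IDH1mut replicates 1 and 2, with adjusted p between 0.0579 and 0.0926. Against CTL, the difference was -0.23 ± 0.11 in IDH1mut (adjusted p = 0.203) and 0.21 ± 0.11 in IDH1wt cells (adjusted p = 0.380).

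Tcf3 (chr10:80409541-80433976), the E protein that B cell development starts from, also came from an x_at probe set and had narrow groups. Its log2 level was 5.57, 5.48 and 5.64 in IDH1mut, 5.73, 5.67 and 5.71 in IDH1wt, and 5.85, 5.78 and 5.81 in CTL cells. The 3 groups did not overlap in any pair, with IDH1mut lowest and CTL highest. The steps were small: -0.25 ± 0.09 in IDH1mut against CTL cells (-0.44 to -0.06; adjusted p = 0.0628), -0.14 ± 0.09 in IDH1mut against IDH1wt cells (adjusted p = 0.339) and -0.11 ± 0.09 in IDH1wt against CTL cells (adjusted p = 0.572). Only the first of these passed in some settings, among them the fit on brighter genes (adjusted p = 0.0185).

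Read over the family, 1 member rose (Id2) and 1 fell (Tcf4) of 7 in IDH1mut against CTL cells, where 20.7% of all 17731 genes changed (10.1% rose and 10.6% fell). The groups did not overlap for 4 members (Id1, Id2, Tcf3 and Tcf4), against 37.8% of all genes, and 3 (Id2, Tcf3 and Tcf4) had an unadjusted p under 0.05, against 32.3% of genes. In IDH1mut against IDH1wt cells 1 member rose (Id2) and 2 fell (Tcf4 and Tcf12), with a background of 13.3% of genes changed (6.54% rose and 6.78% fell). There 4 members (Id1, Id2, Tcf4 and Tcf12) had an unadjusted p under 0.05, against 26.7% of all genes. In that comparison 5 members did not overlap, all but Id1 and Id4, and 29.5% of all genes did not. In IDH1wt against CTL cells 0 of 7 passed with limma, against 2.33% of all genes (1.62% rose and 0.711% fell). By an unadjusted p under 0.05 there were 2 (Id1 and Id2), against 17.0% of all genes, and for 3 (Id1, Tcf3 and Tcf12) the groups did not overlap, against 23.6% of genes. The median log2 difference of the members was -0.10 in IDH1mut against CTL, -0.06 in IDH1wt against CTL and 0.21 in IDH1mut against IDH1wt cells, against -0.04, -0.04 and -0.00 over all genes. IDH1mut and IDH1wt were each compared with the same CTL arrays, so those comparisons are not independent of each other.

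**Figure D2:**
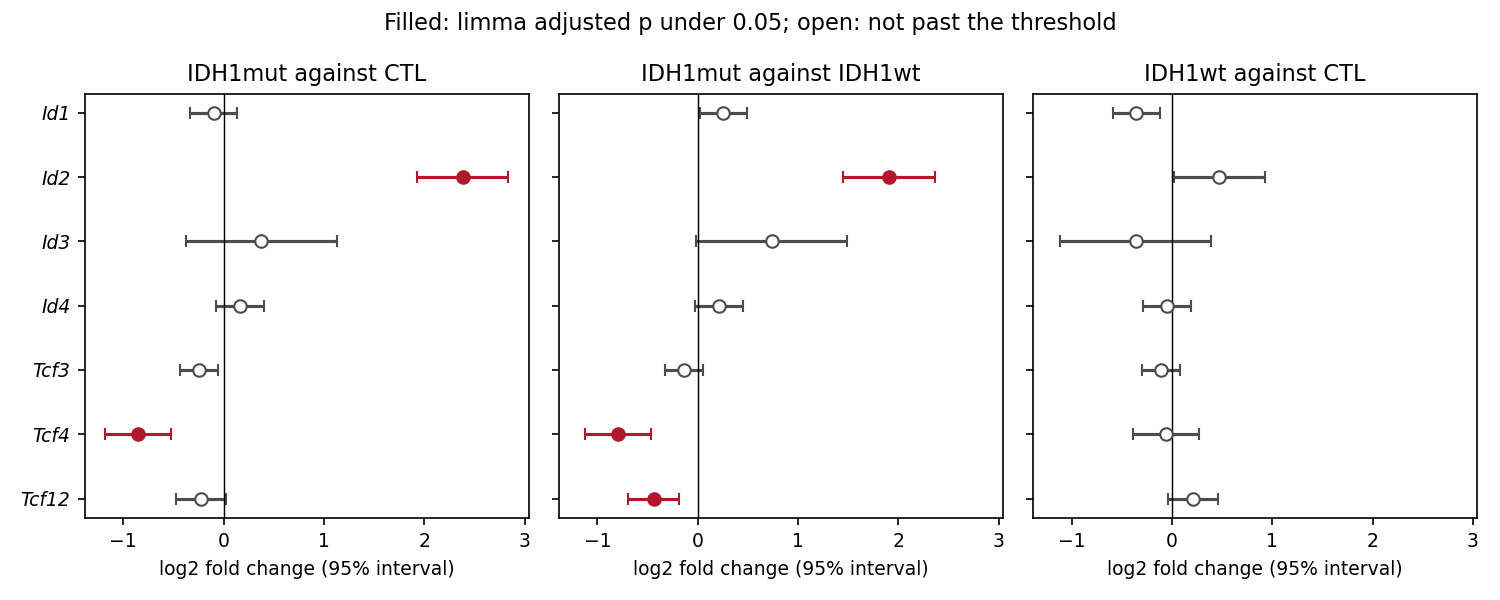
Log2 fold change of the 7 genes with its 95% interval, not adjusted for multiple tests, in IDH1mut against CTL, IDH1mut against IDH1wt and IDH1wt against CTL cells; filled points passed an adjusted p of 0.05. Id2 lies far to the right in both IDH1mut panels, Tcf4 to the left in both, and no point is filled in the IDH1wt against CTL panel.

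The genes whose level followed each member most closely over the 9 arrays were taken by Pearson's r, as a description over 9 arrays that share their groups and their scale. Id2 was followed by Oasl2, an interferon-induced gene (r = 0.992), Arrb2, an adaptor that desensitises receptors (r = 0.991), and Ssx2ip (r = 0.990). Oasl2 measured 9.05, 8.92 and 8.96 in IDH1mut, 7.85, 8.40 and 8.13 in IDH1wt, and 7.83, 7.77 and 7.93 in CTL cells, the same picture of high IDH1mut arrays and a middle IDH1wt replicate 2. Tcf4 was followed by Spry2, a feedback inhibitor of receptor tyrosine kinase signalling (r = 0.982), by Mrpl39 (r = 0.982) and by Tspyl3 (r = 0.977). Spry2 measured 5.74, 5.95 and 6.37 in IDH1mut, 7.10, 6.78 and 6.82 in IDH1wt, and 7.15, 6.87 and 7.25 in CTL cells. Id3 was followed by Chchd10 (r = 0.984) and by the B cell precursor genes Vpreb3 (r = 0.966) and Blnk (r = 0.943). For the other members the closest genes were Snrnp27 for Id1 (r = 0.975), Serp1 for Id4 (r = 0.966), Zscan21 for Tcf3 (r = 0.971) and Tespa1 for Tcf12 (r = 0.964).

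Marker genes of other cell types moved with the groups, and their part in the results for the members was not tested. Innate lymphoid cells need Id2 and plasmacytoid dendritic cells need Tcf4, so those lists come first. The background for the counts of this and the following lists is the 20.7% of all genes that changed in IDH1mut against CTL, 2.33% in IDH1wt against CTL and 13.3% in IDH1mut against IDH1wt cells. Of 13 natural killer and innate lymphoid genes, 1 rose and 1 fell in IDH1mut against CTL cells. The one that fell was Rora, a nuclear receptor of innate lymphoid cells, at -1.43 ± 0.16 (adjusted p = 0.000168), or -0.68 when the probe sets of the gene were averaged (adjusted p = 0.00222). The summed level of the list lay between 9.22 and 9.42 in IDH1mut, 8.98 and 9.31 in IDH1wt, and 9.09 and 9.15 in CTL cells on the log2 scale. The median deviation of its genes from their means over the arrays overlapped between IDH1mut and CTL cells. It lay between 0.02 and 0.09 in IDH1mut, -0.14 and -0.00 in IDH1wt, and -0.07 and 0.06 in CTL cells. The one that rose, Il18r1 (0.42; adjusted p = 0.0392), lost the call when single arrays were left out. Of 13 plasmacytoid dendritic cell genes, 3 rose and 3 fell. Bst2, an interferon-induced surface protein of these cells, fell by 0.99 ± 0.16 (adjusted p = 0.00127), and Irf8, a transcription factor of dendritic cells and monocytes, fell by 0.77 ± 0.16 (adjusted p = 0.00633). Ccr9, a homing receptor, rose by 1.35 ± 0.32 (adjusted p = 0.0124), a call lost without CTL replicate 3. Chosen after its values were seen, Siglech, the defining receptor of the type, measured 4.57 ± 0.22 in IDH1mut, 4.82 ± 0.03 in IDH1wt and 4.87 ± 0.10 in CTL cells and did not pass (IDH1mut against CTL, adjusted p = 0.0910). The summed plasmacytoid list lay between 10.7 and 11.0 in IDH1mut, 11.3 and 11.4 in IDH1wt, and 11.2 and 11.3 in CTL cells. Such a sum is weighted to bright genes such as Irf8, which averaged 9.67 in IDH1mut and 10.4 in CTL cells. The median deviation of the plasmacytoid genes from their means over the arrays overlapped between the groups. It lay between -0.18 and 0.09 in IDH1mut, -0.04 and 0.18 in IDH1wt, and -0.23 and 0.14 in CTL cells. Of 8 genes of conventional type 1 dendritic cells, 3 rose. Flt3, a growth factor receptor, rose by 0.72 (adjusted p = 0.0149) and Naaa by 0.60 (adjusted p = 0.0225). Both calls were lost when replicate 1 or 3 of CTL was left out (adjusted p up to 0.0637 and 0.0774). Zbtb46, a dendritic cell transcription factor, rose by 0.60 (adjusted p = 0.00978). Some of these levels lay near the low end of the scale, where RMA compresses differences. Zbtb46 averaged 3.42 and Ccr9 3.88 in CTL cells, and Rora 3.76 in IDH1mut cells.

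Other lists changed in larger shares in IDH1mut against CTL cells. All 8 measured primary granule genes fell, and 8 of 12 late neutrophil genes and 10 of 11 erythroid genes rose. In IDH1mut against IDH1wt cells 7 of the 8 primary granule genes fell and 7 of the 12 late neutrophil genes rose. There 0 of 11 erythroid genes passed, while 10 had an unadjusted limma p under 0.05, against 26.7% of all genes. The summed erythroid level on the log2 scale lay between 12.0 and 12.2 in IDH1mut, 10.5 and 12.0 in IDH1wt, and 10.7 and 10.8 in CTL cells. The summed primary granule level lay between 14.4 and 14.5 in IDH1mut, 15.1 and 15.3 in IDH1wt, and near 15.3 in CTL cells. Within IDH1wt, Id2 and the erythroid list were both lowest on replicate 1 and highest on replicate 2. The median deviation of the erythroid genes from their means over the arrays was 0.53, 0.95 and 0.84 in IDH1mut and -1.06, 0.62 and 0.09 in IDH1wt cells. In CTL cells it was -0.73, -0.79 and -0.56. The part of erythroid cells in the level of Id2 was not tested.

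Of 7 measured T cell genes, 5 rose in IDH1mut against CTL cells and 4 rose against IDH1wt. Cd247, the zeta chain of the T cell receptor complex, rose by 0.93 ± 0.18 against CTL (adjusted p = 0.00343) and by 1.31 ± 0.18 against IDH1wt (adjusted p = 0.00100). It averaged 3.84 in CTL and 3.47 in IDH1wt cells, near the low end of the scale. The summed T cell level lay between 8.47 and 8.87 in IDH1mut, at or below 8.18 in IDH1wt, and between 8.06 and 8.29 in CTL cells on the log2 scale. Of 9 mast cell, basophil and eosinophil genes, 3 fell against CTL and 4 against IDH1wt, and Prg2, the major basic protein of eosinophils, fell by 2.06 ± 0.29 against CTL (adjusted p = 0.000672). Of 8 monocyte and macrophage genes 1 fell in IDH1mut against CTL cells, as did 1 of 5 megakaryocyte genes. Against IDH1wt, 4 of the 8 monocyte and macrophage genes fell and 0 rose, and 1 of the 5 megakaryocyte genes fell.

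The B cell precursor list tracked Id3. The median deviation of its 10 measured genes from their means over the arrays was 0.43, 0.02 and 1.39 in IDH1mut, -1.30, 0.08 and -0.45 in IDH1wt, and -0.51, 0.71 and -0.45 in CTL cells. IDH1mut replicate 3 and CTL replicate 2, the arrays with the highest Id3, had the highest values here too. Id2 differed in that CTL replicate 2 was the lowest CTL array for it. Within IDH1wt, Id2 and the list were both lowest on replicate 1 and highest on replicate 2. Within IDH1mut both were highest on replicate 3. The part of B cell precursors in the level of Id2 was not tested. Vpreb3, part of the surrogate light chain family, measured 7.70, 7.24 and 8.67 in IDH1mut, 6.32, 7.59 and 7.01 in IDH1wt, and 7.11, 8.64 and 7.06 in CTL cells. In the list, 3 of 10 genes rose and 0 fell in IDH1mut against CTL cells.

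**Figure D3:**
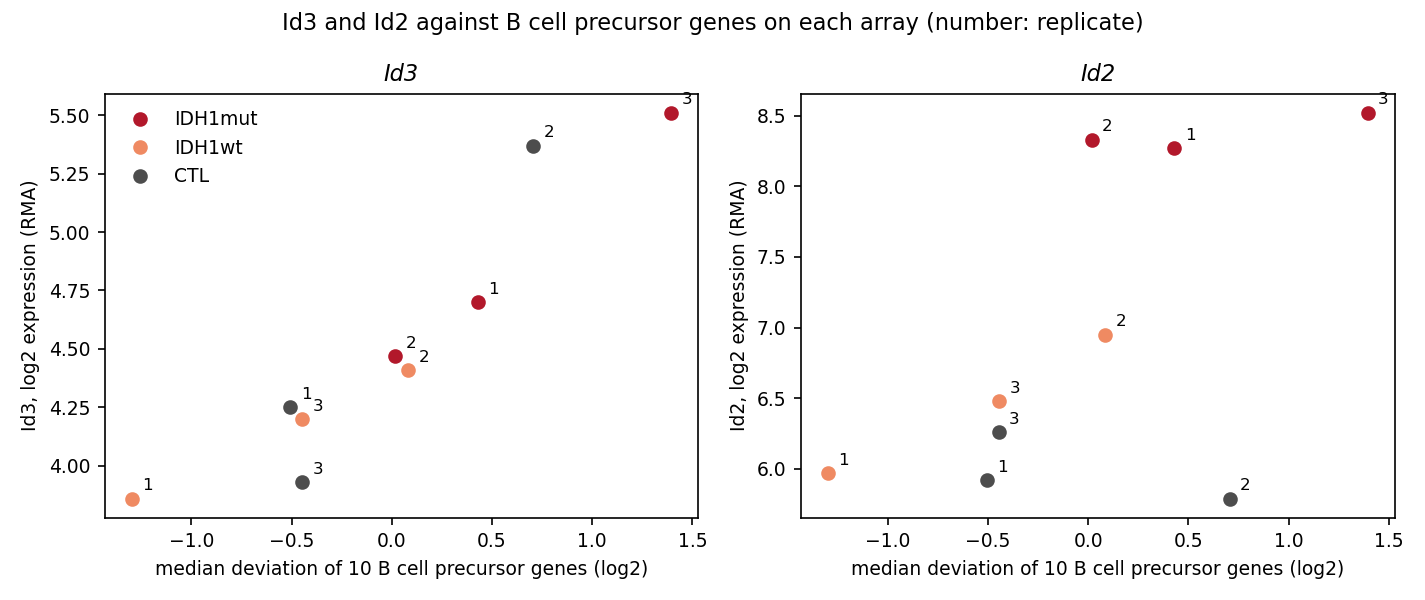
Log2 level of Id3 and of Id2 on each of the 9 arrays against the median deviation of 10 B cell precursor genes from their means over the arrays, coloured by group. IDH1mut replicate 3, at 1.39, and CTL replicate 2, at 0.71, lie farthest right and have the highest Id3. For Id2 all IDH1mut arrays lie above the others and CTL replicate 2 is lowest, while the IDH1wt arrays keep the order they have for Id3.

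The partners that E proteins pair with were measured through 19 genes of tissue-restricted helix-loop-helix factors and the TAL1 complex. In IDH1mut against CTL cells 3 rose and 2 fell. Gata1, the erythroid factor that works with TAL1, rose by 1.19 ± 0.30 (adjusted p = 0.0158), a call lost when replicate 2 or 3 of CTL, or replicate 2 of IDH1mut, was left out. Gata1 also belongs to the erythroid list given above. Tal1 itself rose by 0.78 ± 0.13 (adjusted p = 0.00189), and it rose by 0.72 ± 0.13 in IDH1wt against CTL cells (adjusted p = 0.0179), where leaving out any 1 of 5 arrays ended the call. Cbfa2t3, a corepressor carried by the TAL1 complex, fell by 0.85 ± 0.11 (adjusted p = 0.000455). Chosen after its values were seen, Lyl1, the close relative of TAL1, fell by 0.38 ± 0.08 (adjusted p = 0.00721). Lmo2, the bridge of the complex and also chosen after its values were seen, differed by 0.03 ± 0.10 (adjusted p = 0.890). Against IDH1wt, 3 partners fell in IDH1mut cells and 0 rose: Ssbp2 by 0.89 ± 0.16 (adjusted p = 0.00431), Cbfa2t3 by 0.82 ± 0.11 (adjusted p = 0.00112) and Ssbp3 by 0.59 (adjusted p = 0.0149; lost without IDH1wt replicate 3, at 0.0580, or IDH1mut replicate 3, at 0.0526). Ssbp2 and Ssbp3 stabilise the LDB1 adaptor of that complex. Of 8 HES, HEY and BHLHE repressors, other helix-loop-helix factors that bind DNA without E proteins, 1 fell in IDH1mut against CTL cells, Hes6 by 0.46 ± 0.10 (adjusted p = 0.00625).

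BMP and TGF-beta signalling, which acts on Id genes through SMAD proteins, did not move one way. Of 29 measured genes, 5 rose and 4 fell in IDH1mut against CTL cells, with a median of -0.04. Acvrl1, a receptor that signals to the SMAD proteins of the BMP branch, measured 7.88, 8.08 and 7.59 in IDH1mut, 6.91, 7.07 and 7.15 in IDH1wt, and 6.61, 6.69 and 6.67 in CTL cells. It rose by 1.19 ± 0.12 (adjusted p = 0.000114), and its groups did not overlap. Bambi, a decoy receptor that dampens the pathway, measured 8.38, 8.43 and 8.48 in IDH1mut, 9.58, 9.06 and 9.22 in IDH1wt, and 9.65, 9.34 and 9.78 in CTL cells. It fell by 1.16 ± 0.14 (adjusted p = 0.000314). Skil, a corepressor of SMAD proteins, rose by 0.93 ± 0.11 (adjusted p = 0.000244). Among genes chosen after their values were seen, Smad1, the BMP branch transducer, fell by 0.83 ± 0.17 (adjusted p = 0.00514) and the ligand Tgfb1 by 0.78 ± 0.11 (adjusted p = 0.000546). Chosen in the same way, Tgfbr2 rose by 0.73 (adjusted p = 0.000505), a call kept in all 19 alternatives. Smad2 (0.40; adjusted p = 0.0391) and Smad4 (0.30; adjusted p = 0.0485) also rose, and both calls were lost when single arrays were left out. In IDH1mut against IDH1wt cells 2 of the 29 rose and 5 fell, and Acvrl1 (0.81; adjusted p = 0.00200) and Bambi (-0.86; adjusted p = 0.00335) kept their directions. The largest change there was that of Acvr1, another receptor of the BMP branch, which fell by 0.91 ± 0.16 (adjusted p = 0.00456). Chosen after its values were seen in IDH1mut against CTL cells, Acvr1 fell by 0.69 ± 0.16 (adjusted p = 0.0117), a call lost when replicate 3 of either group was left out. In IDH1wt against CTL cells 1 of the 29 rose, Tgfbr2, a TGF-beta receptor, by 0.53 (adjusted p = 0.0176), a call lost when single arrays were left out (adjusted p up to 0.100).

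Of 13 transcription factors known to act on Id genes, 1 rose and 5 fell in IDH1mut against CTL cells. Egr1, an immediate early zinc finger factor, measured 6.96, 6.32 and 6.60 in IDH1mut, 6.21, 7.04 and 6.72 in IDH1wt, and 8.97, 8.66 and 8.96 in CTL cells. Both IDH1 groups lay below CTL. Egr1 fell by 2.24 ± 0.21 in IDH1mut (adjusted p = 5.71e-05) and by 2.21 ± 0.21 in IDH1wt against CTL cells (adjusted p = 0.000273). Cebpa, the myeloid factor, fell by 0.61 ± 0.09 (adjusted p = 0.00103) and Runx3 by 0.57 ± 0.10 (adjusted p = 0.00205) in IDH1mut against CTL cells. Both also fell against IDH1wt, Cebpa by 0.55 ± 0.09 (adjusted p = 0.00344) and Runx3 by 0.65 ± 0.10 (adjusted p = 0.00183). In that comparison 4 of the 13 fell and 0 rose, and Stat5a fell by 0.54 ± 0.11 (adjusted p = 0.0106). Myc, chosen after its values were seen, fell by 0.47 ± 0.10 in IDH1mut against CTL cells (adjusted p = 0.00613). The factor that rose there was Mycn, by 0.55 (adjusted p = 0.0184), a call lost when single arrays were left out. It was also chosen after its values were seen.

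Known targets of E proteins went both ways. Of 20 measured lymphoid targets, 4 rose and 2 fell in IDH1mut against CTL cells, with a median of 0.19. Those that rose most were Dntt, the polymerase that adds bases at V(D)J joints, by 1.69 ± 0.40 (adjusted p = 0.0110), and the surrogate light chain genes Vpreb1 by 1.64 ± 0.42 (adjusted p = 0.0167) and Igll1 by 1.46 ± 0.37 (adjusted p = 0.0168). The calls of Vpreb1 and Igll1 were lost when replicate 1 or 3 of CTL, or replicate 3 of IDH1mut, was left out, and those of all 3 genes with a variance trend and without moderation. These 3 genes also belong to the B cell precursor list, whose level differed between arrays of a group as given above. Against IDH1wt they rose by more, Vpreb1 by 2.53 ± 0.42 (adjusted p = 0.00296), Dntt by 2.46 ± 0.40 (adjusted p = 0.00252) and Igll1 by 2.24 ± 0.37 (adjusted p = 0.00305). Other lymphoid targets were chosen after their values were seen. In IDH1mut against CTL cells Gfi1b rose by 1.12 (adjusted p = 0.00337), a call kept in all 19 alternatives. Gfi1, also on the primary granule list, fell by 0.48 (adjusted p = 0.0193) and Foxo1 by 0.43 (adjusted p = 0.0332). Both of these calls were lost when single arrays were left out. Ebf1, the B lineage factor that E proteins switch on, averaged 4.50 ± 0.89 in IDH1mut, 3.23 ± 0.97 in IDH1wt and 3.83 ± 0.80 in CTL cells and did not pass in IDH1mut against CTL cells (adjusted p = 0.433).

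Of 11 targets in the cell cycle and in cytokine signalling, 2 fell and 0 rose in IDH1mut against CTL cells, a share near the 20.7% of all genes that changed. Cdkn2a, which encodes the cell cycle inhibitors p16 and p19 and is activated by E proteins and repressed by Id1 in fibroblasts, measured 4.10, 3.89 and 3.91 in IDH1mut, 5.96, 5.60 and 5.52 in IDH1wt, and 6.51, 5.83 and 6.78 in CTL cells. All IDH1mut arrays lay below all others, and the change was -2.41 ± 0.21 against CTL (adjusted p = 3.73e-05) and -1.73 ± 0.21 against IDH1wt (adjusted p = 0.000506). Cdkn1a, the p21 inhibitor and a textbook E protein target, fell by 0.36 ± 0.11 in IDH1mut against CTL cells (adjusted p = 0.0360), a call lost without any 1 of 5 arrays. Cdkn1b, the p27 inhibitor, averaged 4.26 ± 0.22 in IDH1mut, 3.68 ± 0.12 in IDH1wt and 4.25 ± 0.09 in CTL cells, with IDH1wt the low group. It rose by 0.58 in IDH1mut against IDH1wt cells (adjusted p = 0.0100) and fell by 0.57 in IDH1wt against CTL cells (adjusted p = 0.0358), where leaving out any 1 of 5 arrays ended the call. In IDH1mut against IDH1wt cells Cdk6, a kinase of the G1 phase, fell by 0.60 (adjusted p = 0.0162).

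**Figure D4:**
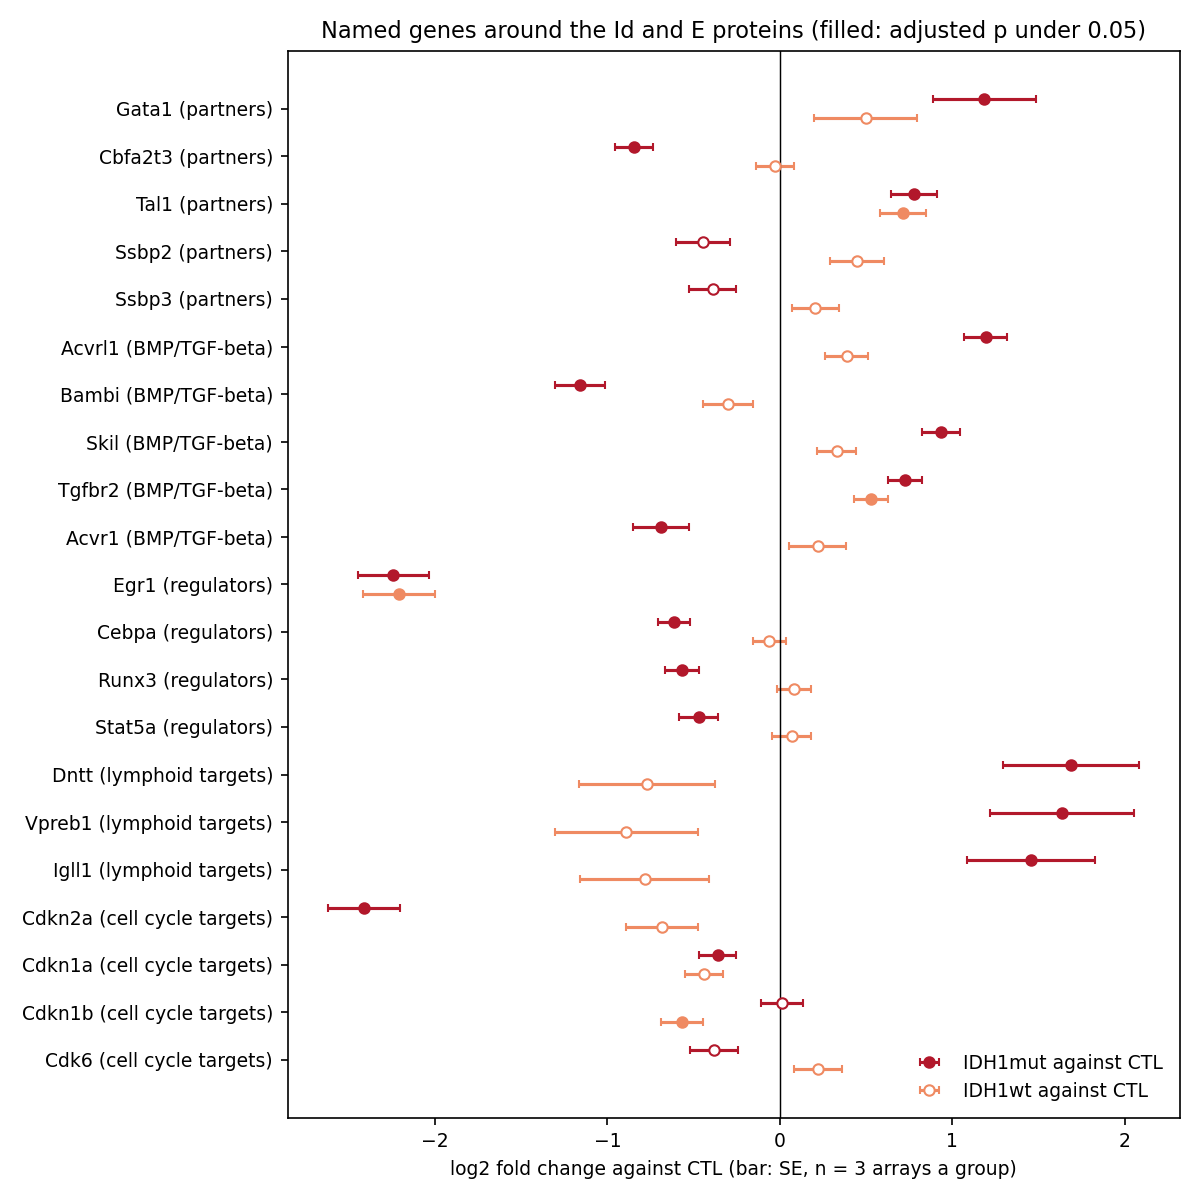
Log2 fold change against CTL, with its SE, of 21 genes named from the lists of partners, BMP and TGF-beta signalling, regulators and targets, for IDH1mut and IDH1wt cells. Egr1 lies at -2.24 in IDH1mut and -2.21 in IDH1wt cells, while Cdkn2a, at -2.41 in IDH1mut and -0.68 in IDH1wt cells, and Acvrl1, at 1.19 and 0.39, differ in size between them.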

How the data were processed

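The deposited values are log2 expression values per probe set. RMA, which corrects background, quantile-normalises and summarises, is named per the submitters' processing notes, with no version, and other steps are not given in the sources used here. There are no detection calls, and RMA compresses differences near the low end of the scale, and the number of arrays limits the precision. The table held 20877 probe sets, of which 17815 had 1 gene symbol, 244 several and 2818 none, and only the first kind was used. Array medians lay between 4.65 and 4.72.

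Of several probe sets for a gene, the one brightest on average was kept, giving 17731 genes, and nothing was filtered on level. The 3 group means were estimated jointly from the 9 arrays (limma 3.58.1, R 4.3.3), with moderated two-sided contrasts and Benjamini-Hochberg adjustment over all 17731 genes at a threshold of 0.05. "Rose", "fell" and "changed" mark genes past it. Intervals are the fit's 95% intervals, not adjusted. Tested on simulated data for IDH1mut against CTL (17731 genes, 200 changed), the fit recovered 36% of changes of 0.5 log2 units, 94% of 1 and 100% of 2, with 9 false calls among 174. In the data 3663 genes (20.7%) passed in that comparison. The adjustment depends on how many genes change, so the simulated shares may not carry over.

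The members and gene lists were chosen with earlier results of these data known. From each list the text names up to 3 genes with the largest fold change among those past the threshold in a comparison, for each member the genes with the highest r, and otherwise says that a gene was chosen after its values were seen. Summed levels are log2 of the sum of a list's linear values. Gene positions and promoters are RefSeq's, build GRCm38.p6. Alternatives were other variance models, array weights, centring, filters, a replicate block and leaving out each array in turn.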

Additional observations from a re-analysis of the deposited data

How the results depend on the processing

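Across 19 alternatives, Id2 rose and Tcf4 fell in IDH1mut cells against both CTL and IDH1wt cells in every one. Id2 lay between 2.28 and 2.52 against CTL and between 1.66 and 2.15 against IDH1wt, and Tcf4 between -1.03 and -0.73 and between -0.97 and -0.67. The number of members changed in IDH1mut against CTL cells was 2, and 3 on brighter genes (which leaves out Id3 and Id4), with array weights and without moderation, through Tcf3 (adjusted p 0.0185, 0.0242 and 0.0157). In IDH1wt against CTL cells it was 0, and 1 with a variance trend, with array weights or without IDH1wt replicate 1, through Id1 (adjusted p 0.0434, 0.0319 and 0.0485). In IDH1mut against IDH1wt cells it was 3, and 2 without moderation (Tcf12, adjusted p = 0.0682), and it ranged between 2 and 3 when arrays were left out. Directions turned for 3 differences that had not passed, in IDH1wt against CTL cells: Tcf4 ranged from -0.16 (without CTL replicate 2) to 0.0212 (without CTL replicate 1), Id3 from -0.65 (without CTL replicate 3) to 0.0650 (without CTL replicate 2) and Id4 from -0.11 (without IDH1wt replicate 1) to 0.0014 (without IDH1wt replicate 2). The cause was not tested. Of all genes, 414 changed in IDH1wt against CTL cells, against 717 with a variance trend, 1226 with array weights, 58 without moderation, and 58 to 1226 over all settings. Without single arrays this count fell to 132 without CTL replicate 1, 145 without CTL replicate 3 or IDH1wt replicate 3 and 211 without IDH1wt replicate 2, the count of 3663 for IDH1mut against CTL fell to 2370 without CTL replicate 1, and that of 2363 for IDH1mut against IDH1wt fell to 1475 without IDH1wt replicate 3 and 1528 without IDH1mut replicate 2. Higher calls were 69.6% in IDH1wt against CTL cells, against 58.2% with array weights and 58.6% without moderation. Samples with the same replicate number did not deviate together (correlations -0.0857 to 0.0257). No pairing by number was seen, although 3 arrays per group cannot exclude one. With the replicate number as a block, no member's call changed (2, 0 and 3 members; Id2 in IDH1mut against CTL, adjusted p = 0.000161, and Tcf12 in IDH1mut against IDH1wt, 0.0428), while 3383 of all genes changed in IDH1mut against CTL, 314 in IDH1wt against CTL and 2035 in the comparison of the IDH1 vectors. Of the other named genes, 43 of 102 calls were lost in at least 1 alternative and 0 reversed.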
